A study of Mus musculus with 6 samples.

Results

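The genes described here read lower in heat-shocked mouse embryo fibroblasts given lipopolysaccharide (LPS) than in the same cells given LPS alone or left untreated, while LPS alone moved them little. There were 62 such genes among the 18194 with a probe set of a single gene symbol. Each gene was read by its brightest probe set, and differences were taken on log2(intensity + 3.4) between arrays of the same culture. A gene was kept if its Control mean was 50 or more, if HS+LPS minus LPS and HS+LPS minus Control were both -0.8 or lower in both cultures, and if LPS minus Control lay within 0.5 of 0 in both. Zinc finger genes named Zfp plus digits, and Snai2, were left out by choice. All 3 contrasts on all 6 arrays thus chose the members, and their values in these contrasts are a description that supports nothing further.

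The study measured primary fibroblast cultures from 2 ICR mouse embryos of embryonic day 15.5 on Affymetrix GeneChip mouse genome arrays, which read biotin-labelled cRNA, with 1 array per group and culture. HS+LPS cells had a heat shock of 1 h at 42 °C, followed by 4 h with LPS, LPS cells had 4 h with 1 μg/ml LPS, and Control cells stayed untreated at 37 °C. The agent label of the HS+LPS arrays gives the time of LPS but no dose, all cells grew in medium with serum, and heat alone, without LPS, was not analysed here. Each culture stands for 1 embryo, so n = 2 per group, and "heat" below means heat shock followed by LPS.

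Mammalian cells meet heat with heat shock factor 1, which switches on chaperone genes, while transcription of many other genes is turned down and the splicing of precursor RNA is disturbed. LPS, a glycolipid of Gram-negative bacteria, acts through Toll-like receptor 4 and NF-kB. Fibroblasts are connective tissue cells that make collagen and hyaluronan and answer growth factor, Wnt and Hedgehog signals. Genes of these signals, of transcription, of mitosis and of membrane traffic were among the members.

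The arrays carried the marks of fibroblasts and of heat. All 12 fibroblast and mesenchyme markers were on the array, none at the noise level on all 6 arrays, and their signals summed to 33870 and 38090 in HS+LPS, 34040 and 37200 in LPS and 32330 and 42710 in Control (cultures 1 and 2). The sum is mostly collagens, Vim and Fn1, and single markers were lower after heat. Pdgfrb, a receptor of mesenchymal cells, read 883.3 and 911.1 in HS+LPS, 1608 and 1549 in LPS and 1554 and 1475 in Control, and was the 1 fibroblast marker called for HS+LPS minus LPS (limma adjusted p = 0.0278). Prrx1 read 572.2 and 912.2 in HS+LPS, 875.8 and 1644 in LPS and 822.3 and 1553 in Control, and Pdgfra 117 and 573.2 in HS+LPS, 198.1 and 1309 in LPS and 301.6 and 1036 in Control. Of 34 heat shock chaperone genes tested, 9 rose in HS+LPS against LPS and 0 fell (limma, adjusted p under 0.05), and 21 rose with the culture as a block. Summed markers of most other cell types were also higher in the heat group. Of their single markers tested, 0 were called for HS+LPS minus LPS or HS+LPS minus Control (limma without the culture, adjusted p under 0.05). For HS+LPS minus Control that fit called only 22 genes higher and 1 lower of 12918. The 0 calls therefore do not show that these markers were unchanged. Adipogenic, chondrogenic and osteogenic markers summed to 228 and 332 in HS+LPS, 84.2 and 87.8 in LPS and 90.6 and 97.98 in Control, with Sox9 alone at 156 and 273 in HS+LPS and 39.1 to 62.3 on the other 4 arrays, and Adipoq, the defining adipocyte gene, at 1.3 to 5.1 on all 6. Neural and glial, skeletal muscle, endothelial and epithelial sums were also higher in HS+LPS than in LPS or Control of the same culture (neural and glial 889 and 638 in HS+LPS, 698 and 417 in LPS, 737 and 490 in Control). Map2 made up most of the neural difference, at 531.5 and 323.9 in HS+LPS, 335.4 and 179.2 in LPS and 377.7 and 234.2 in Control. The neuronal tubulin gene Tubb3 was not higher after heat: HS+LPS was close to LPS and below Control, at 59.2 and 44.7 in HS+LPS, 60 and 46.2 in LPS and 68.8 and 63.9 in Control. For muscle the sums were 439 and 363 in HS+LPS, 296 and 247 in LPS, and 340 and 292 in Control, with Myod1 and Myog at 10.6 or less. Acta1 made up 377 and 248 of the HS+LPS sums. Epithelial sums were 89.3 and 126 in HS+LPS, 52.2 and 96.3 in LPS, and 54.3 and 61.3 in Control, and endothelial sums were 47.3 and 58.1 in HS+LPS, 23.1 and 47.8 in LPS, and 36.2 and 43.7 in Control, with Pecam1 at or under the noise level on all 6 arrays. Endothelial markers reached at most 26.6, Kdr in HS+LPS of culture 2, beside noise levels of 6.0 to 7.7. Macrophage markers summed to 321 and 203 in HS+LPS, 367 and 194 in LPS and 392 and 215 in Control. The part of these cells in the members' values was not tested, and in such bulk RNA fewer cells of a type and less RNA per cell cannot be told apart.

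The members' signals after heat came to a median of 43% of Control, between 21.6% for Ttc30b and 54.2% for Rev1, on the scale with the pseudocount of 3.4. The median log2 difference over the 62 genes was -1.22 for HS+LPS minus Control, against -0.09 over the 12918 genes tested, and -1.17 for HS+LPS minus LPS, against -0.05. Both HS+LPS arrays lay below the other 4 arrays for 61 of the 62, which the rule all but fixes, against 20.9% of all genes tested, and Gas1 was the exception. In the limma fit without the culture, 16 members were called lower for HS+LPS minus LPS (adjusted p under 0.05), where 0.844% of all genes tested were called lower, and 0 or 1 when any 1 array was left out. With the culture as a block 62 were, against 12.7% of all. For HS+LPS minus Control the fit called 0 members (61 at an unadjusted p under 0.05), against 0.00774% of all genes, which is the single gene Snai2, and 62 with the block, against 12.1%. These contrasts chose the genes, so nothing is read from the counts. All 62 passed the filter on low signals.

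**Figure D1:**
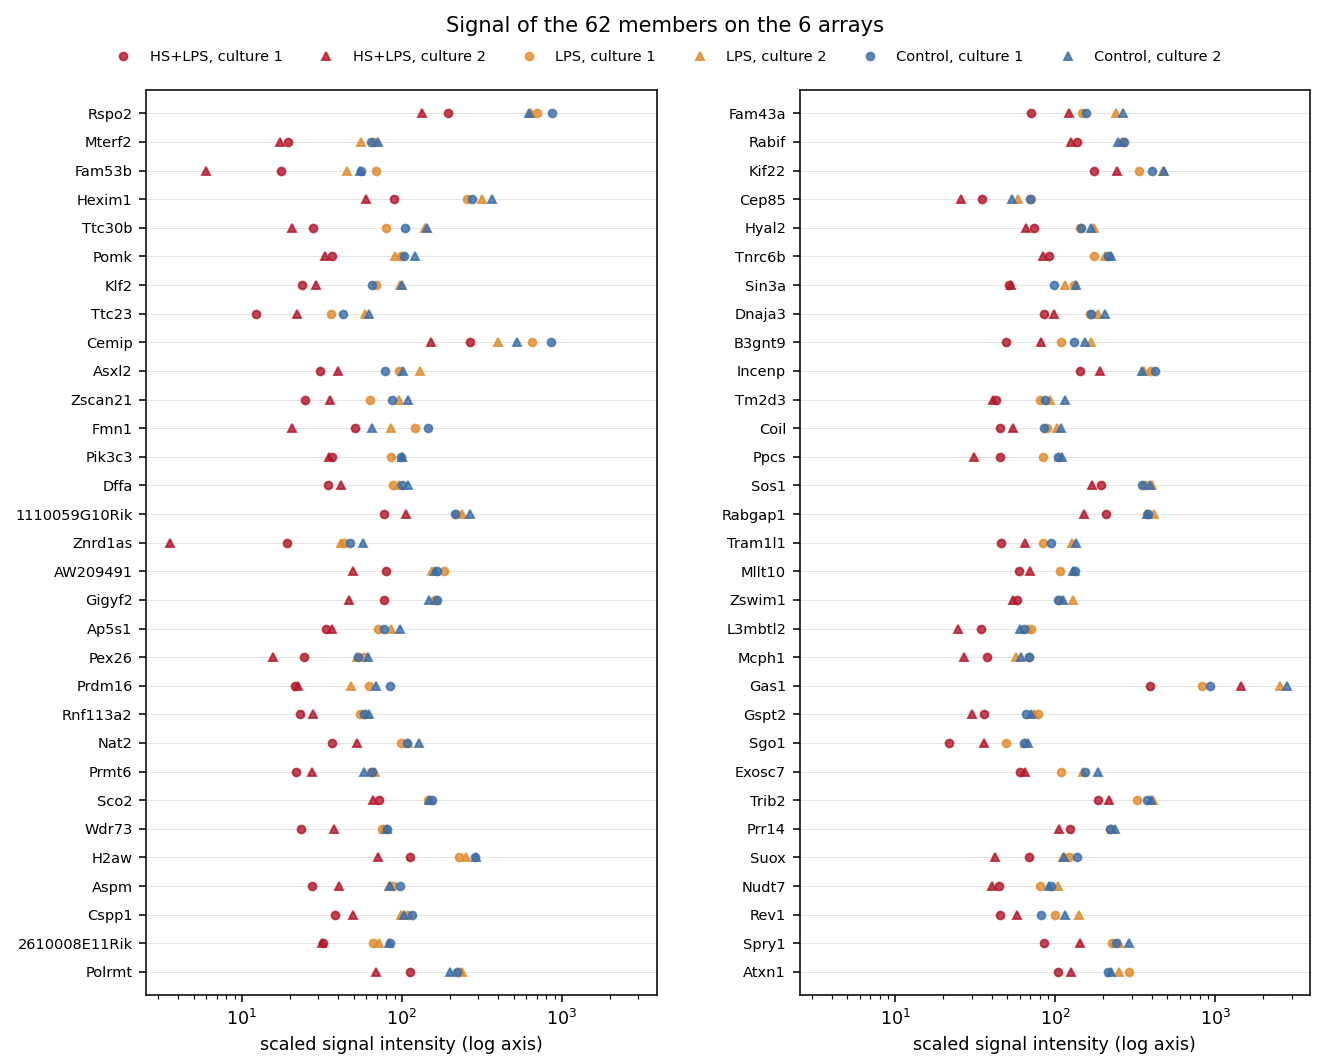
Scaled signal intensity (log axis) of the 62 genes on the 6 arrays, ordered by their smallest fall, with circles for culture 1 and triangles for culture 2. The HS+LPS points lie to the left of the LPS and Control points of the same culture in every row, since the rule asked for it, and the LPS and Control points lie close together; Gas1 is the row in which the cultures stand far apart.

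For LPS minus Control the members' median was -0.08, against -0.05 over all genes tested, and the range over single cultures was -0.49 to 0.45. Without the block 0 members were called in either direction (limma; 0 at an unadjusted p under 0.05), against 0.147% of all genes. With the block 1 was called, Cemip, which was lower with LPS, against 2.76% of all. The difference was below 0 in both cultures for 32 members and above 0 in both for 9. The 32 are 51.6% of the members, beside 43.02% of all genes with Control means of 50 or more. "Little moved by LPS" is therefore a bound set by the rule, not a measured absence of a response.

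**Figure D2:**
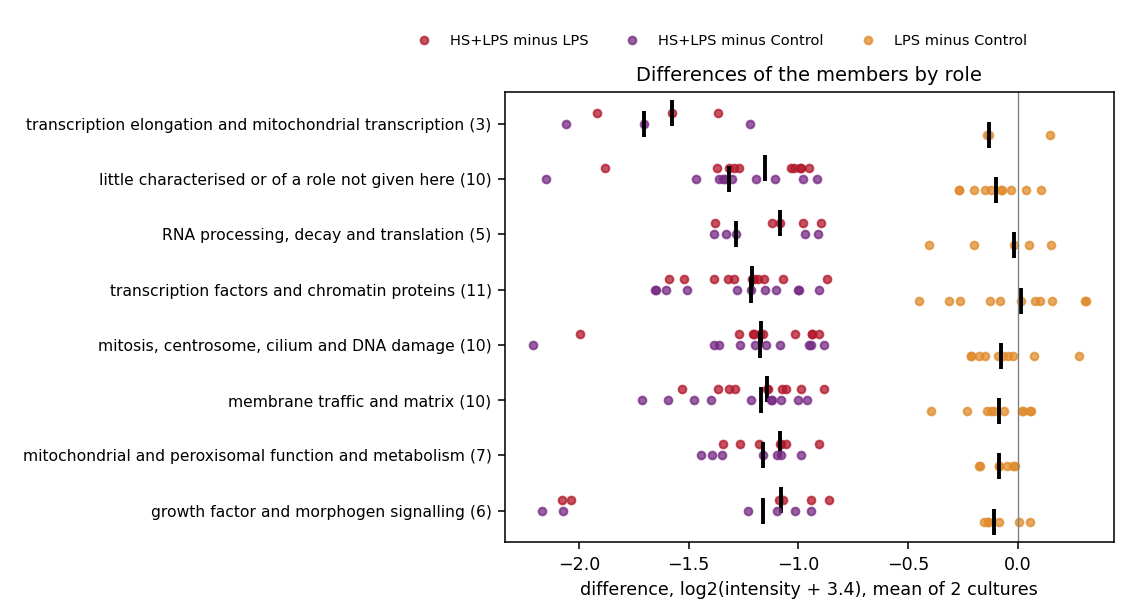
Log2 difference of each member, averaged over the 2 cultures, with the genes grouped by role and the number of genes in brackets; black bars are medians. The median HS+LPS minus Control of the groups runs from -1.16 to -1.71, and every LPS minus Control point lies between -0.45 and 0.31.

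Among signalling genes the lowest share of Control remained for Rspo2, a secreted R-spondin that potentiates Wnt signalling through LGR receptors (chromosome 15, 43020788 to 43171594 on GRCm38.p6). It read 194.8 and 132.9 in HS+LPS, 701.2 and 640.0 in LPS and 871.4 and 621.4 in Control (cultures 1 and 2). Both heat-shocked cultures were far under the other 4 arrays, 4.50-fold lower than Control and 4.10-fold lower than LPS. None of 6 other genes of this signal that were measured reached -0.8 in all 4 heat differences. Rspo3, another R-spondin, read 375.5 and 213.5 in HS+LPS, 420.7 and 380.5 in LPS and 430.9 and 300.0 in Control, and its receptor gene Lgr4 read 177.5 and 163.7 in HS+LPS, 169.6 and 232.5 in LPS and 271.4 and 386.3 in Control. Lgr4 was thus lower in LPS too, which Rspo2 was not in culture 2. Fam53b, linked to Wnt signalling in zebrafish, was among the dimmest members, with 17.6 and 5.94 in HS+LPS, 68.4 and 45.2 in LPS and 55.9 and 55.0 in Control. Its HS+LPS signal in culture 2 was under that array's noise level of 6.91, the brightest of 27 Bacillus subtilis probe sets, so that array gives only a bound on its fall. A dimmer Fam53b probe set fell less, with HS+LPS minus Control at -0.46, against -2.07 for the one used.

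Gas1, a cell-surface co-receptor for Hedgehog ligands, differed more between the embryos than between treatments. It read 390.5 and 1448 in HS+LPS, 822.8 and 2549 in LPS and 929.8 and 2800 in Control. Within each culture HS+LPS was lowest, 2.14-fold under Control over both, but HS+LPS in culture 2 exceeded LPS and Control in culture 1. For the other Hedgehog co-receptors LPS was already below Control in culture 2. Cdon read 135.6 and 299.1 in HS+LPS, 110.2 and 296.6 in LPS and 180.8 and 495.1 in Control, and Boc read 64.0 and 71.8 in HS+LPS, 93.4 and 120.2 in LPS and 88.6 and 219.8 in Control.

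Growth factor signalling held an activator and a brake. Sos1, the exchange factor that loads Ras with GTP below receptor tyrosine kinases, read 192.6 and 170.3 in HS+LPS, 366.0 and 402.0 in LPS and 350.5 and 388.3 in Control. Dimmer Sos1 probe sets above the filter gave HS+LPS minus Control of -0.14, -0.46 and -0.09, against -1.01 for the one used. Spry1, a feedback inhibitor of the same pathway, read 85.7 and 141.8 in HS+LPS, 227.6 and 250.3 in LPS and 238.2 and 290 in Control. A pair of its relatives had the opposite sign. Spry2 read 243.0 and 272.1 in HS+LPS, 149.6 and 130.3 in LPS and 123.6 and 147.5 in Control. Against Control its limma adjusted p was 0.0876 in the fit without the culture, where 0 of the 62 members passed either. Spred2 read 440.8 and 460.4 in HS+LPS, 319.9 and 293.5 in LPS and 372.4 and 261.3 in Control. Of 6 other Sprouty and Spred genes measured, both heat differences were above 0 in both cultures for 2 (these ones), below 0 for 2 and mixed for the rest, and none was at -0.8 or lower in all 4. Trib2, a pseudokinase that acts as a scaffold for protein degradation, read 184.4 and 215.3 in HS+LPS, 325.6 and 407.1 in LPS and 375.2 and 398.1 in Control.

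Of the transcription factors, Klf2, a Krüppel-like zinc finger factor known from endothelial and immune quiescence, read 23.6 and 29.0 in HS+LPS, 69.0 and 96.6 in LPS and 64.9 and 100.3 in Control. It was 2.84-fold under Control, with no overlap of the heat arrays and the rest. Zscan21, a SCAN-domain zinc finger protein, read 24.8 and 35.7 in HS+LPS, 63.3 and 95.9 in LPS and 86.9 and 109.5 in Control. Prdm16, a zinc finger regulator of brown fat identity, read 21.5 and 22.4 in HS+LPS, 62.1 and 48.4 in LPS and 84.6 and 68.5 in Control. Prdm16 lay near the edge of the LPS band, with LPS minus Control at -0.43 and -0.47. These were the 3 members among 83 C2H2 zinc finger genes of other names with Control signals of 50 or more. The members are 62 of 8421 genes with such signals, or 0.736%, while of the 148 Zfp genes with such signals 5 (3.38%) met the values and were left out: Zfp322a, Zfp407, Zfp467, Zfp760 and Zfp839. Zfp322a has a letter after its digits, and reading the rule without it would give 63 members. Snai2 did not meet them, with LPS minus Control at -0.52 in culture 1.

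Chromatin proteins supplied 4 members of 136 listed modifiers with Control signals of 50 or more. Asxl2, a Polycomb-associated protein, read 30.6 and 39.6 in HS+LPS, 96.0 and 130 in LPS and 78.5 and 101.9 in Control. Here the LPS arrays were the highest of their culture, so the 3.01-fold distance from LPS exceeded the 2.43-fold distance from Control. Sin3a, the scaffold of a histone deacetylase co-repressor complex, read 51.3 and 52.7 in HS+LPS, 130.4 and 114.6 in LPS and 98.5 and 135.5 in Control. L3mbtl2, a Polycomb-type repressor, was 2.00-fold under Control and Mllt10, a partner of the histone methyltransferase Dot1l, was 1.99-fold. Outside the list, the arginine methyltransferase gene Prmt6 was 2.32-fold under Control, and the histone gene H2aw was 3.14-fold, at 113.1 and 70.7 in HS+LPS, 226.7 and 252.8 in LPS and 288.1 and 288.5 in Control. Atxn1, a transcriptional co-repressor, lay at the edge of the rule, with 103.8 and 125.8 in HS+LPS, 290.3 and 249.3 in LPS and 212.3 and 221.7 in Control. Rnf113a2, a RING finger gene with a close paralog, read 23.01 and 27.9 in HS+LPS, 54.7 and 59.4 in LPS and 58.4 and 62.7 in Control.

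Hexim1 carried the largest difference among genes of the general transcription machinery. Its protein holds the elongation kinase P-TEFb inactive in the 7SK ribonucleoprotein. It read 89.7 and 59.3 in HS+LPS, 255.8 and 318.1 in LPS and 272.9 and 363.0 in Control, 4.16-fold under Control. A dimmer Hexim1 probe set fell less, at 19.8 and 23.7 in HS+LPS, 41.6 and 54.2 in LPS and 37.0 and 47.6 in Control. Genes of the kinase itself were near or above Control. Cdk9, its catalytic subunit, read 773.8 and 742.0 in HS+LPS, 716.9 and 754.0 in LPS and 756.1 and 690.4 in Control. The cyclin gene Ccnt1 read 275.2 and 225.5 in HS+LPS, 183.5 and 166.0 in LPS and 139.6 and 150.6 in Control. Against Control the limma adjusted p of Ccnt1 was 0.111 without the culture, not passed, in the fit that passed 0 of the 62 members. Of 6 other P-TEFb and 7SK genes measured, 2 had all 4 heat differences above 0, 1 had them below 0 and 3 were mixed. The 1 below was Mepce, which caps 7SK, at 106.7 and 136.1 in HS+LPS, 156.4 and 155.4 in LPS and 158.9 and 139.0 in Control. Hexim2, the paralog of Hexim1, was dim and differed between cultures, at 11.6 and 2.29 in HS+LPS, 13.7 and 22.1 in LPS and 10.1 and 29.2 in Control. Larp7, a 7SK-binding protein, read 217.4 and 259.4 in HS+LPS, 224.1 and 228.3 in LPS and 218.6 and 224.7 in Control. Partner genes of this kind were picked by function once the members were known.

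A pair of mitochondrial transcription genes were members. Polrmt, the mitochondrial RNA polymerase, read 112.0 and 69.2 in HS+LPS, 228.9 and 236.2 in LPS and 220.4 and 199.4 in Control. A further Polrmt probe set fell less, at 96.0 and 85.1 in HS+LPS, 134.9 and 121.5 in LPS and 136.5 and 121.2 in Control. Mterf2, of the mitochondrial termination factor family, read 19.3 and 17.2 in HS+LPS, 66.9 and 55.8 in LPS and 64.0 and 70.6 in Control. Heat arrays of both genes lay under all others. Of 6 other genes of mitochondrial transcription, 4 had all their heat differences below 0 and 1 above 0, and none reached -0.8 in all. Tfam, the mitochondrial DNA packaging factor, read 137.3 and 183.2 in HS+LPS, 153.8 and 190.6 in LPS and 147.1 and 186.7 in Control.

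The promoters of Gas1, Spry1, Klf2 and Hexim1 are shown because these genes of known function, each spanning under 5000 bp, were lower together after heat. They come from RefSeq on GRCm38.p6, run 5′ to 3′ along the gene from 250 bases before its start to 50 after, and lie at chr13:60177486-60177785 (minus strand) for Gas1, chr3:37639697-37639996 (plus) for Spry1, chr8:72318812-72319111 (plus) for Klf2 and chr11:103116075-103116374 (plus) for Hexim1. Capitals mark the CCAAT box, the GC box GGGCGG, the ETS-type core CGGAAG and the TATA spelling TATAAA, on either strand.
Gas1: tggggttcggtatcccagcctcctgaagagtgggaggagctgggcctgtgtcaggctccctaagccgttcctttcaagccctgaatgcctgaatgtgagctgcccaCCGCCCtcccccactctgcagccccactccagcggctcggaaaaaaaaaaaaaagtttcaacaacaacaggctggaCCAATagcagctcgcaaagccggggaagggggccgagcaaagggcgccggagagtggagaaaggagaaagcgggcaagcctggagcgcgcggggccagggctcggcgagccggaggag
Spry1: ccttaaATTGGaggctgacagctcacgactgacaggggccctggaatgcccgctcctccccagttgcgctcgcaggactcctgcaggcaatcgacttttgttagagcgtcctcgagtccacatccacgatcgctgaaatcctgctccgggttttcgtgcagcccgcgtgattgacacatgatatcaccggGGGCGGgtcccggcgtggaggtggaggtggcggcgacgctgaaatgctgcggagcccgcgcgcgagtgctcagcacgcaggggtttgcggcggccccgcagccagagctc
Klf2: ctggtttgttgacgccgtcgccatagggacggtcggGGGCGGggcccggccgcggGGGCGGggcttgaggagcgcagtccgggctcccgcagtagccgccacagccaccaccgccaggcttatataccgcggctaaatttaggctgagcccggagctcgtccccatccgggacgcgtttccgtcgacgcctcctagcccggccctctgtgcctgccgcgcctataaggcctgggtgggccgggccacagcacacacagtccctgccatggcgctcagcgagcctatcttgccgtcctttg
Hexim1: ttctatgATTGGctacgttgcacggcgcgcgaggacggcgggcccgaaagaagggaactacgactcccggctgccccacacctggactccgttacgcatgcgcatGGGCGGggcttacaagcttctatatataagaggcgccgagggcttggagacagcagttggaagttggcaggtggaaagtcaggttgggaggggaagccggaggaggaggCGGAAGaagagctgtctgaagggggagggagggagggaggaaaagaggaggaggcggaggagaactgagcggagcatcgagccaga
The GC box stood once in Gas1, Spry1 and Hexim1 and at 2 places in Klf2, and CCAAT stood once in Gas1, Spry1 and Hexim1. Hexim1 also held CGGAAG once, and GCGCNNGCG once outside the capitals. On both strands of the table's 27025 promoters, GGGCGG was in 35.9%, CCAAT in 38.0%, CGGAAG in 17.2%, TATAAA in 14.2% and GCGCNNGCG in 12.4%. In promoters of genes with Control means of 50 or more the shares were 69.1% for GGGCGG, 38.6% for CCAAT, 34.98% for CGGAAG, 6.50% for TATAAA and 28.4% for GCGCNNGCG, so a GC box is common among expressed genes. The heat shock element spellings GAANNTTC and TTCNNGAA, in 7.96% and 8.47% of all promoters, were in none of the 4 shown, nor were CACGTG (7.24%), TGACGTCA (1.85%) and TGANTCA (7.92%). Spellings that read the same on both strands were counted once, and motifs may overlap. A promoter was found for 47 of the 62 genes, or 75.8%, which is too few to describe promoter letters over the members, so that comparison is void.

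Genes of RNA handling were 5. Exosc7, a subunit of the RNA exosome, read 60.4 and 65.1 in HS+LPS, 108.5 and 148.4 in LPS and 153.7 and 186.0 in Control, and was the member nearest the LPS limit, with LPS minus Control at -0.49 in culture 1. Tnrc6b, a GW182 protein of microRNA silencing, read 91.1 and 83.5 in HS+LPS, 174.4 and 204.5 in LPS and 212.6 and 222.1 in Control. Gigyf2, a translational repressor, read 77.4 and 46.4 in HS+LPS, 160.0 and 163.2 in LPS and 164.9 and 147.2 in Control. Its other probe sets disagreed, as given below. Coil, the marker protein of Cajal bodies, was 1.88-fold under Control, and Gspt2, a translation release factor with a close paralog, 1.96-fold.

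Mitosis, centrosome and cilium genes made up 8 members and DNA damage genes 2. Of the 51 genes on the cell cycle and DNA replication list with Control means of 50 or more, 0 were members. The mitosis genes named here are thus not on that list, and the 0 describes only the genes listed. Ttc30b, of the intraflagellar transport machinery, was 4.62-fold under Control, at 27.7 and 20.5 in HS+LPS, 80.1 and 138.6 in LPS and 104.6 and 143.8 in Control. Whether its probe set also reads its close paralog was not tested. Kif22, a chromokinesin, read 173.7 and 242.7 in HS+LPS, 334.1 and 469.7 in LPS and 401.2 and 481.4 in Control, and Incenp, the inner centromere protein of the Aurora B complex, read 142.9 and 189.4 in HS+LPS, 395.9 and 357.4 in LPS and 420.0 and 347.8 in Control. In both genes the heat arrays stood apart from the rest. Aspm of the spindle poles was 2.57-fold under Control, Sgo1, which protects sister chromatid cohesion, 2.21-fold, and the centrosome genes Cspp1, Mcph1 and Cep85 were 2.41-, 1.93- and 1.92-fold under it. Rev1, a translesion DNA polymerase, was the member least far below Control (1.84-fold), with LPS above Control in both cultures: 45.2 and 57.8 in HS+LPS, 99.6 and 141.1 in LPS and 81.5 and 115.8 in Control. Dffa, the inhibitor of the caspase-activated DNase, read 34.5 and 41.6 in HS+LPS, 88.2 and 95.9 in LPS and 99.6 and 109.5 in Control.

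Of the matrix genes, a pair act on hyaluronan. Cemip, needed for hyaluronan breakdown at the cell surface, read 265.8 and 152.7 in HS+LPS, 649.8 and 396.4 in LPS and 852.7 and 524.2 in Control. The groups kept the same order in both cultures, with LPS minus Control at -0.39 and -0.40 on the log2 scale. Hyal2, a membrane-anchored hyaluronidase, read 74.0 and 65.5 in HS+LPS, 142.5 and 174.9 in LPS and 145.6 and 166.5 in Control. The synthase gene Has2 was not lower, at 294.5 and 226.9 in HS+LPS, 268.4 and 221.6 in LPS and 216.6 and 189.1 in Control. Pomk, a kinase of O-mannosyl glycans on dystroglycan, read 36.4 and 33.1 in HS+LPS, 98.7 and 91.1 in LPS and 103.2 and 121.0 in Control. A further Pomk probe set, with a mean signal of 76.6 beside 80.6 for the one used, read 57.3 and 40.8 in HS+LPS, 73.2 and 71.2 in LPS and 95.9 and 121.4 in Control, so that its LPS minus Control of -0.74 in culture 2 lay outside the band. The glycosyltransferase gene B3gnt9 was 2.17-fold under Control and Fmn1, a formin that builds actin filaments, 2.78-fold.

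In membrane traffic, Pik3c3, the class III phosphoinositide 3-kinase Vps34 of endosomes and autophagy, read 36.3 and 35.2 in HS+LPS, 85.02 and 99.7 in LPS and 99.1 and 100.2 in Control. Rabif and Rabgap1, both regulators of Rab GTPases, were 1.95- and 2.11-fold under Control. Ap5s1, a subunit of the AP-5 adaptor, was 2.32-fold under it and Tram1l1, related to a translocation protein of the endoplasmic reticulum, 2.00-fold.

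The 7 metabolic members read 1.99- to 2.72-fold under Control. Ppcs, which acts in coenzyme A synthesis, was lowest in this group, at 44.9 and 30.9 in HS+LPS, 84.02 and 106.2 in LPS and 104.7 and 109.5 in Control. Nudt7, a peroxisomal coenzyme A hydrolase, was 2.11-fold under Control and Pex26, a peroxisomal import protein, 2.62-fold. Sco2, a copper chaperone of cytochrome oxidase, was 2.14-fold under it, Suox, sulfite oxidase, 2.24-fold, and Nat2, an arylamine acetyltransferase, 2.54-fold. Dnaja3, a mitochondrial Hsp40 chaperone that is not on the chaperone list, read 85.4 and 98.6 in HS+LPS, 164.2 and 186.1 in LPS and 167.6 and 205.1 in Control.

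The 10 remaining genes are little characterised or are given no role here. Znrd1as, named as an antisense gene, read 19.2 and 3.53 in HS+LPS, 43.5 and 41.8 in LPS and 47.2 and 57.3 in Control, and its value in HS+LPS of culture 2 was under the noise level and gives only a bound. Ttc23 read 12.3 and 21.95 in HS+LPS, 36.2 and 58.9 in LPS and 42.9 and 62.4 in Control, and 1110059G10Rik read 77.8 and 106.1 in HS+LPS, 217.3 and 238.1 in LPS and 216.1 and 264.7 in Control. Zswim1, Prr14, Fam43a, Tm2d3, 2610008E11Rik, AW209491 and Wdr73 were 1.88- to 2.54-fold under Control. These and the other genes outside the naming rule are named so that every member is accounted for.

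Values close to each threshold lay on both of its sides. Just inside the limit of -0.8, the weakest of the 4 heat differences was -0.8051 for Rev1, -0.805 for Spry1 and -0.8013 for Atxn1, and just outside it was -0.7999 for Tor4a, -0.7971 for Fignl1 and -0.7938 for Rab30. The largest LPS difference in size was 0.445 for Atxn1, 0.474 for Prdm16 and 0.489 for Exosc7 inside the band, and 0.502 for Lurap1l, 0.525 for 9930012K11Rik and 0.530 for Stat2 outside. Control means were 52.3 for Znrd1as, 52.6 for Ttc23 and 55.4 for Fam53b inside, and 46.1 for Cenpj, 46.3 for Prorp and 47.5 for Wdr60 outside. Of 8570 genes with Control means of 50 or more, 232 had HS+LPS minus LPS at -0.8 or lower in both cultures. LPS minus Control was over 0.5 in both cultures for 95 of these and within 0.5 for 110, and 83 were at -0.8 or lower against Control too. The reverse rule, with both heat differences at 0.8 or higher and the same exclusions, was met by 68 genes, and centring each array on its median turned 62 lower and 68 higher into 35 lower and 92 higher.

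Each culture was also used to choose genes for reading in the other. The differences of the other culture had no part in that choice, but probe sets were picked by their mean over all 6 arrays, and the genes that meet the rule in both cultures are the members over again, so the counts describe the rule and support nothing more. Of 132 genes that met the rule in culture 1 alone, 60 (45.5%) met it in culture 2, against 3.39% of all 8355 genes with Control signals of 50 or more in culture 1. Of 287 that met it in culture 2 alone, 63 (21.95%) met it in culture 1, against 1.61% of 8452. Both heat differences, which share the HS+LPS array, were below 0 in the other culture for 96.2% and 96.5% of the chosen genes, against 48.5% and 45.3% of all. The size shrank on reading: the median HS+LPS minus Control was -0.88 in culture 2 for genes chosen in culture 1, where it was -1.06, and -0.72 in culture 1 for genes chosen in culture 2, where it was -1.05. For the members themselves the median was -1.19 in culture 1 and -1.29 in culture 2, and 40 of 62 were further below Control in culture 2.

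**Figure D3:**
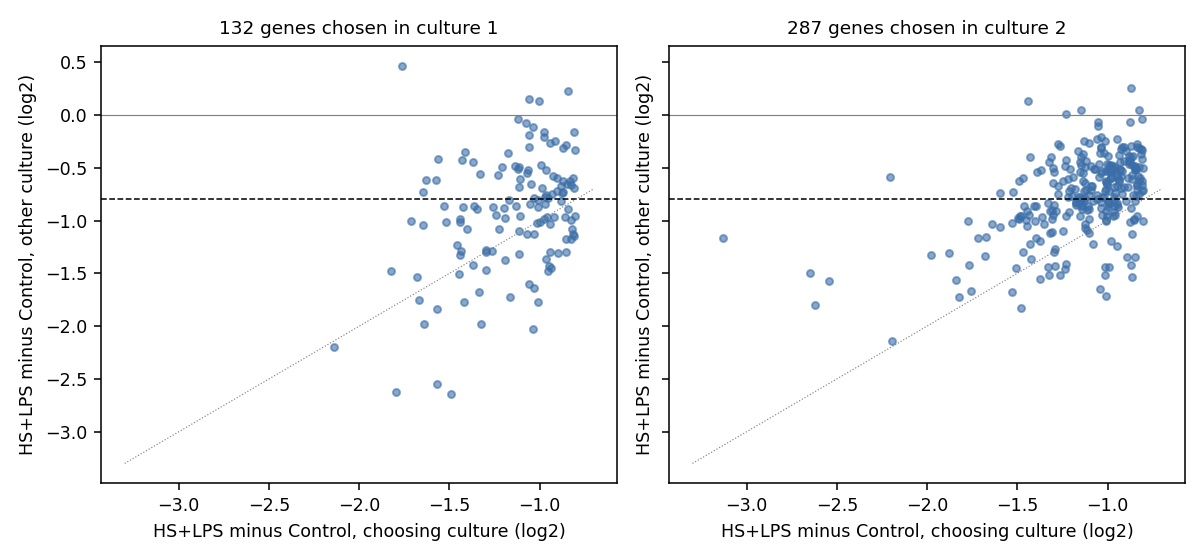
HS+LPS minus Control on the log2 scale in the culture that chose the genes (horizontal) and in the other culture (vertical), 1 point per gene, for 132 genes chosen in culture 1 and 287 in culture 2. Nearly all points lie below 0 on the vertical axis; the dashed line is the limit of -0.8 and the dotted line equality, and most points lie above equality.

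The level difference between the cultures was not used by the rule and could be tested. Of the members 12 were called for culture 2 minus culture 1 (limma, adjusted p under 0.05), 9 higher and 3 lower, against 21.5% of all genes, so the share is near that of genes at large. Gas1 was 3.25-fold higher in culture 2 (log2 difference 1.70, SE 0.07, limma adjusted p = 1.69e-06) in all 3 groups. Fam43a followed at 1.67-fold higher (adjusted p = 0.000552), and Ttc23, Tram1l1, B3gnt9, Zscan21, Rev1, Kif22 and Spry1 were 1.29- to 1.53-fold higher, each in all 3 groups. Fmn1 was 1.89-fold lower in culture 2 (adjusted p = 0.00426), Cemip 1.66-fold lower (adjusted p = 0.000137) and Rspo2 1.31-fold lower (adjusted p = 0.016), also in all 3 groups. Without either Control array 6 members were called, and without either LPS array 7. With 1 embryo each, this compares these cultures and not a trait of embryos.

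Further probe sets of the same genes gave smaller differences. Of the 62 genes 27 had 1 probe set, and the other 35 had 72 more, of which 52 in 34 genes passed the filter. Their median HS+LPS minus Control was -0.62, against -1.22 for the probe sets used in those genes. Those used were the brightest, and the rule asked them for -0.8 or lower in all 4 heat differences. A smaller median on the further probe sets is therefore in part set by that choice. All 4 heat differences were below 0 for 34 of the 52 and above 0 for 5. The same share over all probe sets is not given here. Under a stricter condition, both HS+LPS arrays below the other 4, it was 20.9% of all genes tested. Further probe sets share the arrays and contrasts that chose the genes, so their counts are a description. The 5 above 0 were a pair of Gigyf2 and dim probe sets of Cep85, Mcph1 and Rabif. HS+LPS minus Control was 0.78 for that of Cep85 (mean signal 8.56), 0.48 for Mcph1 (13.7) and 0.36 for Rabif (12.6). Some dim probe sets of mixed sign were also above Control on average. Among them were 1 each of Prmt6 at 0.84 (13.4), Dffa at 0.39 (15.1) and Cspp1 at 0.37 (20.8). All 16 with a mean signal of 50 or more were below 0 in all 4, with a median of -0.91, and 4 of them stayed at -0.8 or lower throughout. These 4 were 1 of Gas1, with 109.9 and 368.4 in HS+LPS, 221.6 and 754.8 in LPS and 256.5 and 773.0 in Control, 1 of Wdr73 and both of Zscan21. Gigyf2 went the other way on a pair of dim probe sets, with 41.3 and 59.3 in HS+LPS, 22.7 and 27.7 in LPS and 16.9 and 32.8 in Control on 1, and 32.6 and 60.5 in HS+LPS, 13.1 and 21.03 in LPS and 17.2 and 17.01 in Control on the other. Averaging its probe sets turned its HS+LPS minus Control to 0.17. The probe sets used for Pomk, Sco2, H2aw, Rabif, Kif22, Sin3a, Incenp, Ppcs and Trib2 are of the kinds marked _s_at or _x_at, which can read related transcripts.

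**Figure D4:**
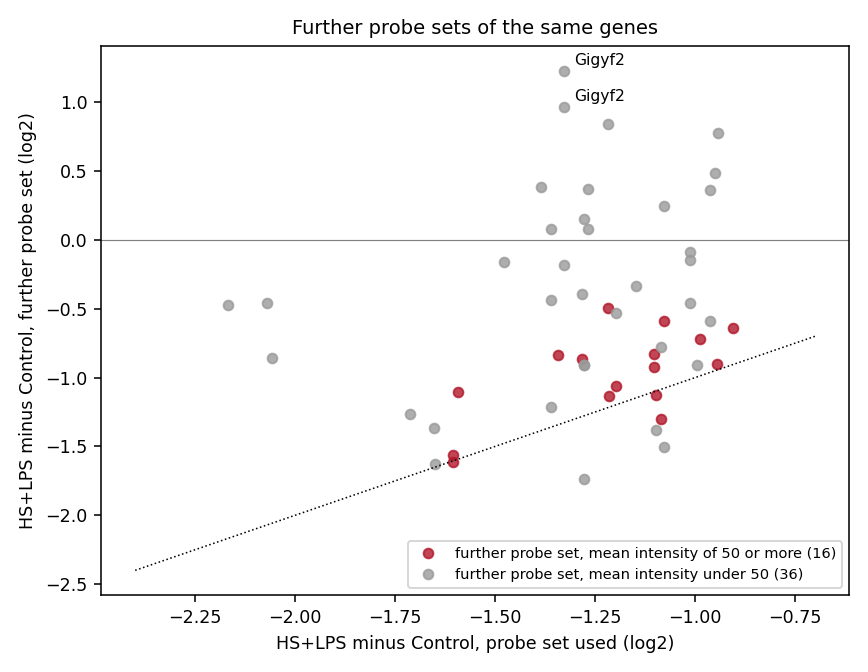
HS+LPS minus Control (log2, mean of 2 cultures) of the probe set used (horizontal) and of each further probe set of the same gene above the filter (vertical), red for mean signals of 50 or more (16) and grey for dimmer ones (36). All red points lie below 0, the dotted line is equality, and both labelled Gigyf2 points lie above 0.

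Short genes were a larger share of the members than of expressed genes. The span from start to end on GRCm38.p6 was 5000 bp or less for 18 of 62 (29.0%), against 904 of 8408 (10.8%) of genes with Control means of 50 or more. The 68 genes of the reverse rule held 15 (22.1%) and the genes lowered against LPS but raised by LPS 10 of 94 (10.6%), so short spans were not confined to genes lower after heat. The 18 were Hexim1, Ttc30b, Klf2, Ap5s1, Rnf113a2, Prmt6, Sco2, H2aw, Fam43a, Hyal2, B3gnt9, Ppcs, Tram1l1, Zswim1, Gas1, Gspt2, Suox and Spry1. Spans ran from 508 bp for H2aw to 415237 bp for Atxn1. No test of these shares was made, and the members' median Control signal of 113 was below the 210 of all genes with 50 or more. The members lay on 19 chromosomes, with 7 on chromosome 7 and 6 each on chromosomes 2 and 8.

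**Figure D5:**
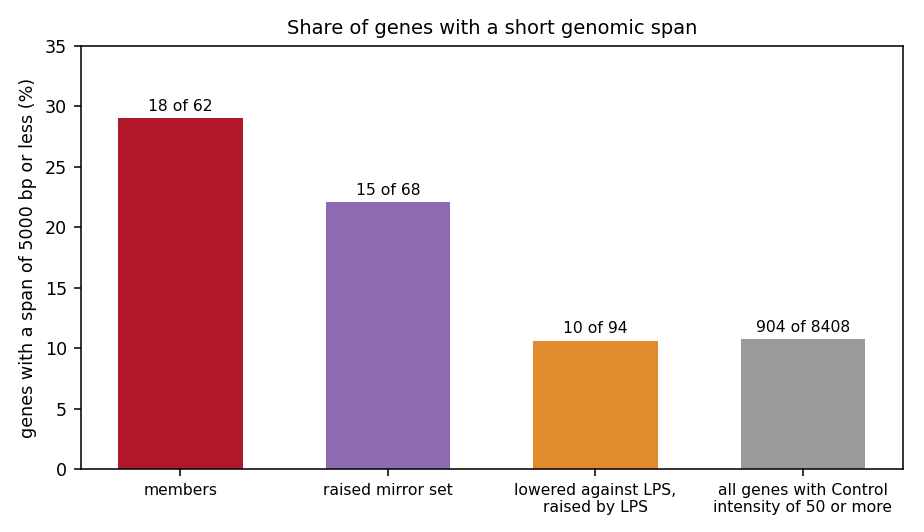
Percent of genes with a genomic span of 5000 bp or less among the members, the genes of the reverse rule (raised mirror set), the genes lowered against LPS that LPS raised, and all genes with a Control signal of 50 or more. The members stand at 29.0% and all genes at 10.8%.

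Lists of related genes by function give the surroundings of the members. In the limma fit with the culture as a block, 14 of 147 C2H2 zinc finger genes of other names rose and 28 fell for HS+LPS minus LPS, and 12 and 29 of 170 chromatin modifiers, 15 and 44 of 243 ubiquitin ligases and adaptors, and 4 and 11 of 154 mitochondrial and peroxisomal genes did so. The counts were 6 and 12 of 59 receptor tyrosine kinase genes, 4 and 10 of 52 Hedgehog, Wnt and Hippo genes, 0 and 15 of 72 DNA repair genes and 2 and 7 of 65 cilium genes. Over all 12918 genes 816 rose and 1635 fell. Members made up 3 of the 83 zinc finger genes with Control means of 50 or more (3.61%), 4 of 136 chromatin modifiers (2.94%), 2 of 180 ubiquitin genes (1.11%, Rnf113a2 and Zswim1) and 2 of 124 mitochondrial and peroxisomal genes (1.61%). They were 2 of 41 receptor tyrosine kinase genes (4.88%), and 1 each of 40 Hedgehog, Wnt and Hippo (2.5%), 35 DNA repair (2.86%) and 43 cilium genes (2.33%), beside 0.736% of all genes. The other 13 lists held 0 members. The lists differ from the roles given above. Gas1 was the member on the Hedgehog, Wnt and Hippo list, which does not hold Rspo2 or Fam53b. Nudt7 and Pex26 were those on the mitochondrial and peroxisomal list, which does not hold Polrmt, Mterf2, Sco2, Suox or Dnaja3. The shares of members rest on 1 to 4 genes a list and were not tested.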

How the data were processed

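Gene expression was measured on 6 1-colour arrays, 2 per group. The values deposited by the authors are intensities on a linear scale for each probe set, and the software behind them is not given in the sources used here. Their mean, trimmed by 2% at each end, was 100.001 on the arrays, as after scaling to a common target, so a difference in total mRNA cannot be seen. From the deposited intensities log2(intensity + 3.4) was computed. Of 45101 probe sets 34958 had 1 symbol, 932 several, and 9211 were not listed in the platform annotation, and the Entrez identifiers of all 62 members were found in RefSeq. The tests kept probe sets at or above percentile 40 of the mean log2 signal.

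A single limma fit (3.58.1, R 4.3.3; lmFit, eBayes with trend) of 3 groups gave Benjamini-Hochberg adjusted p, with a threshold of 0.05, two-sided. It was tested on simulated data. Same-numbered arrays share an embryo per the labels, and their deviations from group means correlated at 0.621, 0.57 and 0.535, so the numbers pair the arrays. The median SE of a log2 difference was 0.149 with the culture as a block and 0.226 without. P-values rest on 2 cultures, and the number of arrays limits the precision. Fold changes carry the pseudocount and understate changes of dim genes. Signals of different probe sets are not comparable.

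The naming rule took the genes on a list, the 15 with the largest smallest fall, the 5 brightest in Control, the 5 with the largest culture difference in each direction and 3 on each side of each threshold. Some members outside it, among them Polrmt, Hyal2, Tnrc6b, Gigyf2, Ppcs, Dnaja3 and H2aw, were also given with their values, by choice. The members, and the 21 lists, tests and alternatives, were chosen with earlier results of these data known. Figures were drawn with matplotlib 3.10.9.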

Additional observations from a re-analysis of the deposited data

How the results depend on the processing

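The 62 members depend on the settings of the rule. With a pseudocount of 16 the rule was met by 39 genes (36 of the members), with median centring of each array by 35 (34), with quantile normalization by 40 (40) and with the mean over a gene's probe sets by 38 (37). A limit of 0.6 gave 181 genes, 1.0 gave 23, and a Control mean of 100 or more gave 38. A single culture gave 132 to 287. Median centring moved the median HS+LPS minus LPS of all genes to 0.08 in both cultures, against -0.04 and -0.05 as deposited, and the count higher under the reverse rule to 92, against 68 as deposited (68 with quantile normalization), and all 62 members stayed below 0 in the 4 heat differences under it and under quantile normalization.

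The 16 members called for HS+LPS minus LPS became 62 with the replicate block, 8 without the filter on low values, 10 with median centring, 10 with quantile normalization, 8 with the mean over probe sets, and 0 to 1 when any 1 array was left out. For HS+LPS minus Control the 0 became 62 with the replicate block, 6 with a pseudocount of 16, 2 with median centring, and 0 to 0 without single arrays. For LPS minus Control the 0 became 1 with the replicate block. The 12 culture differences became 6 to 15 without single arrays, 6 without either Control array and 7 without either LPS array. With a Control, LPS or HS+LPS array left out, the lone array of that group is assumed to vary like the others. Gigyf2 alone was reversed, with the mean over probe sets, at 0.12 against LPS and 0.171 against Control. Of 1612 results for single members under these settings 1360 kept their direction and side of the threshold, 129 lost the call and 121 gained it; the cause was not tested. The share of chosen genes that met the rule in the other culture was 44.7% to 50.7% from culture 1 and 20.3% to 21.95% from culture 2.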
